A study of Salmo salar with 13 samples.

Results

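The sterol regulator srebf2 was followed through 13 RNA sequencing libraries of the saccus vasculosus (SV) of Atlantic salmon, a folded and blood-rich organ on the underside of the fish brain. It was taken as 1 transcript, ENSSSAT00000001244, found by its identifier among the 146780 transcripts of each library, of which 46383 passed a filter on low counts, srebf2 included. The study picked this transcript on these same libraries for its pattern over the groups, so its levels and fold changes are given as a description, with no test. All fish were of the Aquagen strain, had been raised in freshwater (FW) under continuous light, were 11 months old when the photoperiods began, and were not sexed. SPLL fish had 8 weeks of short photoperiod and then 8 weeks of constant light, whereas SP-hold fish were kept on a short photoperiod, 8 h of light in each day, for all 16 weeks. SVs were collected after 24 h in seawater (SW) of 34‰ from SPLL fish (SPLL SW, n = 4) and SP-hold fish (SP-hold SW, n = 3), and in FW from SPLL fish (SPLL FW, n = 2) and SP-hold fish (SP-hold FW, n = 4). Because the SW tank was lit continuously, salt and light changed together in SP-hold fish and cannot be told apart. Fish came from duplicate tanks that were not matched to libraries here. Both the spread between libraries and the differences between groups may thus hold a tank effect. Libraries were treated as independent, which can make errors look too small where fish shared a tank.

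SREBP2, the protein encoded by srebf2, is a transcription factor that is made as a membrane protein of the endoplasmic reticulum. When cholesterol in that membrane is low, the escort protein SCAP carries it to the Golgi, where proteases release the part that enters the nucleus. In mammals this part turns on the genes of cholesterol synthesis and the LDL receptor gene together with the acetyltransferases CREBBP and EP300, and cholesterol in the brain is largely made there and passed between cells on apolipoprotein E. Transcript levels do not measure how much of the protein is cleaved. The srebf2 gene, ENSSSAG00000000667, lies on chromosome 3 of the Ssal_v3.1 assembly from 66658651 to 66672468, and the transcript followed here is 5377 bases long. RefSeq places srebf2 from 66658893 to 66673257 on the same chromosome and lists 7 transcripts for it. Reads of other srebf2 transcripts, and of the paralog srebf1 on the same chromosome (80537124 to 80566888), were not analysed here.

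SP-hold SW libraries held the most srebf2. Levels were read as CPM, which relate the reads of a transcript to all assigned reads of its library, after scaling each library by its trimmed mean of M-values (TMM) factor. SPLL SW libraries had 33.9, 38.7, 34.7 and 39.4 CPM, and SPLL FW libraries had 43.8 and 36.6 CPM. SP-hold SW libraries had 63.0, 50.0 and 66.9 CPM, and SP-hold FW libraries had 39.1, 40.8, 39.0 and 37.7 CPM. All 3 SP-hold SW libraries lay above the highest of the other 10 libraries, SPLL FW replicate 1, and the other 3 groups overlapped each other.

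Group means were 36.7 ± 2.79 CPM in SPLL SW (SD, n = 4), 40.2 ± 5.08 CPM in SPLL FW (SD, n = 2), 60.0 ± 8.86 CPM in SP-hold SW (SD, n = 3) and 39.2 ± 1.24 CPM in SP-hold FW (SD, n = 4). In order of level, SP-hold SW therefore came first and stood apart, and SPLL FW, SP-hold FW and SPLL SW followed without separation beyond their spread. SP-hold SW against SP-hold FW gave a fold of 1.53 and a log2 fold change of 0.62 ± 0.11 (SE of the edgeR fit). SPLL SW against SPLL FW gave -0.13 ± 0.13, so that the difference was of the size of its error. SPLL against SP-hold gave -0.71 ± 0.11 in SW and 0.04 ± 0.13 in FW, and the difference between the SW changes, SPLL minus SP-hold, was -0.75 ± 0.17 on the log2 scale. These contrasts share groups and are not independent of each other. The median over all transcripts tested lay between -0.03 and 0.04 in these contrasts.

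The estimated reads behind these values ran from 611 in SP-hold FW replicate 1 to 1972 in SP-hold SW replicate 3. Counting alone would give a spread of 2.25% to 4.05% of the level. The libraries of a group spread by 7.6% in SPLL SW, 12.7% in SPLL FW, 14.8% in SP-hold SW and 3.17% in SP-hold FW, so that within SP-hold FW the spread was no larger than that of counting.

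On the TPM scale, which the authors deposited and which divides the reads of each transcript by its effective length before they are related to the library total, SP-hold SW was no longer clear of the rest. SPLL SW libraries had 9.06, 13.0, 6.19 and 13.4 TPM, and SPLL FW libraries had 10.2 and 7.63 TPM. SP-hold SW libraries had 24.1, 11.4 and 22.7 TPM, and SP-hold FW libraries had 11.2, 11.8, 10.3 and 8.18 TPM. Replicates 1 and 3 of SP-hold SW stayed above all other libraries, but replicate 2 lay below 2 SPLL SW libraries and SP-hold FW replicate 2. Means were 10.4 ± 3.42 TPM in SPLL SW (SD, n = 4), 8.91 ± 1.81 TPM in SPLL FW (SD, n = 2), 19.4 ± 6.94 TPM in SP-hold SW (SD, n = 3) and 10.4 ± 1.60 TPM in SP-hold FW (SD, n = 4). Without the TMM factor, SP-hold SW replicate 2 had 43.1 CPM, just above the highest SPLL SW library at 42.9 CPM and the highest SP-hold FW library at 42.2 CPM. Replicates 1 and 3 of SP-hold SW were thus clear of the other libraries on all 3 scales. Replicate 2 was clear of them on the TMM scale, and above them by a small margin without TMM. By rank of TPM in its library srebf2 stood between 4500 and 5989 in SP-hold SW, and between 7034 and 8893 in the other 10 libraries, so that the rank separated the groups where the TPM value did not.

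**Figure D1:**
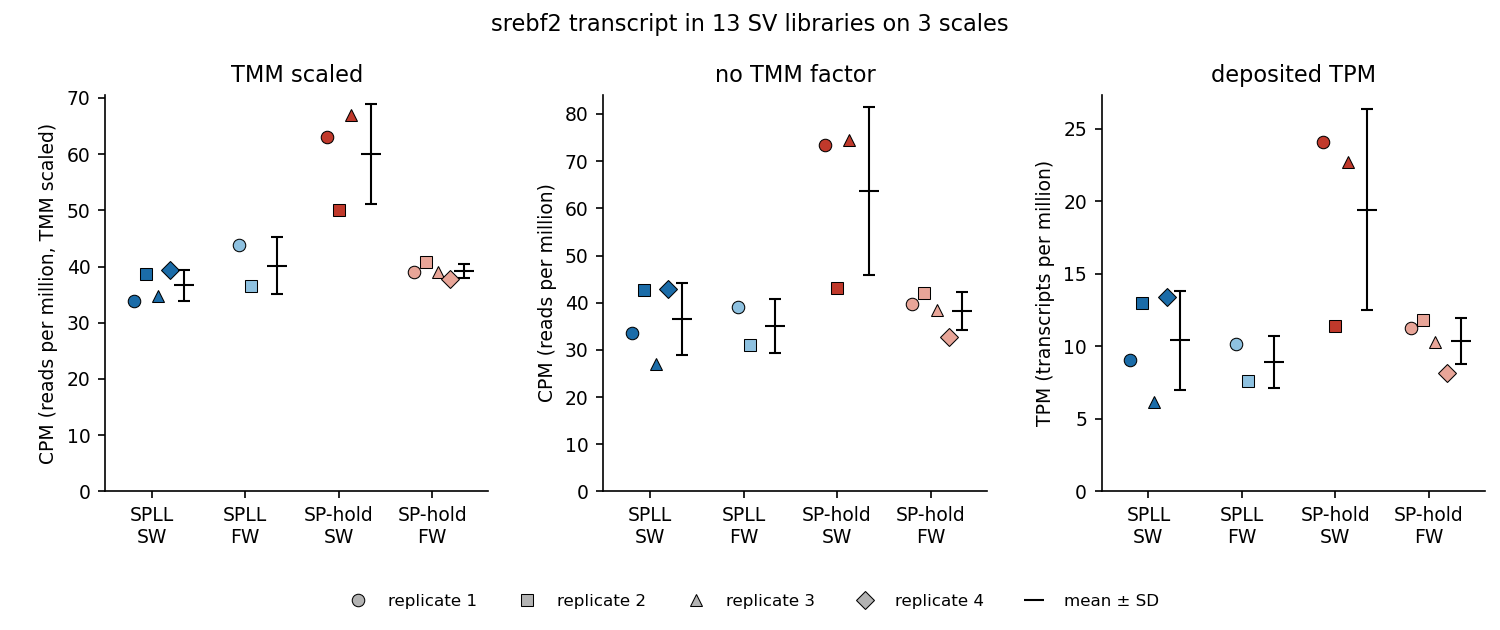
Level of the srebf2 transcript in each of 13 SV libraries as CPM scaled by TMM (left), CPM with no TMM factor (middle) and deposited TPM (right); each point is a library, its shape is the replicate number, and the bar gives the group mean ± SD. With TMM scaling the 3 SP-hold SW libraries lie between 50.0 and 66.9 CPM, above all others, and in TPM replicate 2 of SP-hold SW lies at 11.4, inside the range of the other groups.

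The libraries differed in how much weight long transcripts carried, and srebf2 is long. For each library, the median deviation of the longest 20% of tested transcripts (5490 bases or more) was set against that of the shortest 20% (1891 bases or less), on the log2 CPM scale. The difference ran from -0.71 to 0.11 in SPLL SW, from -0.35 to -0.22 in SPLL FW, from 0.28 to 0.56 in SP-hold SW and from -0.09 to 0.31 in SP-hold FW. The SP-hold SW libraries thus weighed long transcripts most, with 1 overlap with SP-hold FW replicate 1, and among them replicate 2 had both the lowest srebf2 level and the lowest weight of long transcripts. TMM factors were 1.21, 0.887 and 1.15 in SP-hold SW replicates 1, 2 and 3, and ran from 0.80 to 1.21 over all libraries. Set against 722 tested transcripts of like length and level in the same library, srebf2 deviated by 0.47, 0.17 and 0.55 (log2) in SP-hold SW replicates 1, 2 and 3, against -0.17 to -0.08 in SP-hold FW. On that scale it deviated by -0.28 to -0.07 in SPLL SW and by 0.12 and -0.13 in SPLL FW, so that the 3 SP-hold SW libraries again lay above the other 10. The log2 fold change of SW against FW in SP-hold was 0.52 on that scale, and that of SPLL against SP-hold in SW was -0.56. This scale was chosen after the data were seen, and the part of transcript length in the srebf2 difference was not tested.

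**Figure D2:**
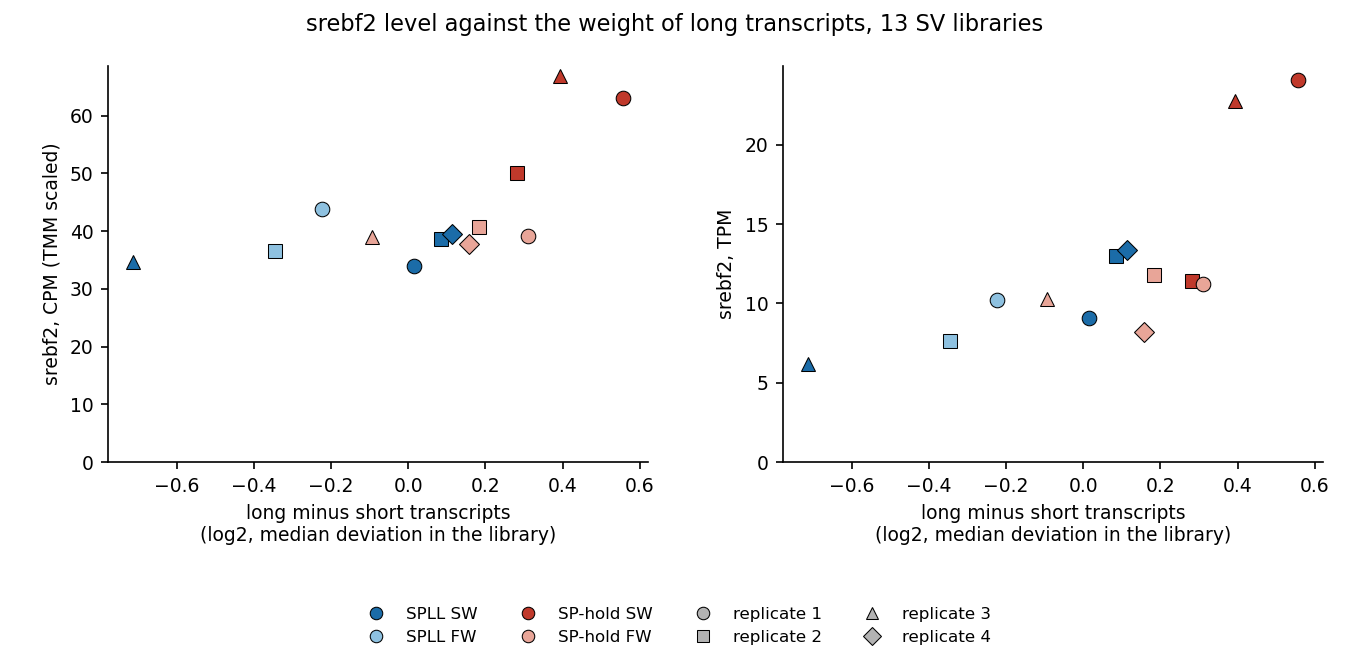
Level of srebf2 as TMM-scaled CPM (left) and as TPM (right) against the weight of long transcripts in the library, the median log2 deviation of long minus short transcripts; each point is 1 of 13 SV libraries, coloured by group. The SP-hold SW libraries lie at 0.28 to 0.56 on the horizontal axis, and SPLL SW replicate 3, at -0.71, lies farthest to the left.

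Of the markers of cell types, those of the SV and its coronet cells (6 transcripts from a list of ependymin and parvalbumin symbols) held 6.13% to 11.5% of TPM in every library. Erythrocyte markers (15 transcripts from a list of hemoglobin, alas2 and slc4a1 symbols) held 4.59% to 11.4% of TPM in SPLL SW, 2.79% to 5.82% in SPLL FW, 2.73% to 4.00% in SP-hold SW and 3.86% to 5.44% in SP-hold FW. They were thus low in the SP-hold SW libraries, where srebf2 was high, and their part in the srebf2 level was not tested. Glia and tanycyte markers (4 transcripts, of whose summed TPM fabp7 alone made up 89.4% to 95.6%) held 0.531% to 0.853% in SPLL SW, 0.580% to 0.644% in SPLL FW, 0.376% to 0.504% in SP-hold SW and 0.376% to 0.522% in SP-hold FW. The 3 markers other than fabp7 held 0.0319% to 0.0424% in SPLL SW, 0.0357% to 0.0380% in SPLL FW, 0.0259% to 0.0400% in SP-hold SW and 0.0241% to 0.0320% in SP-hold FW. A large part of these shares was fabp7b, which is 1 of the 3 and, like fabp7, a pathway transcript below. It had 191.3 to 262.0 TPM in SPLL SW, 230.0 to 244.1 TPM in SPLL FW, 125.0 to 195.8 TPM in SP-hold SW and 128.3 to 178.6 TPM in SP-hold FW. In such bulk tissue, fewer cells of a type and less RNA per cell cannot be told apart. Assigned reads ran from 15346418 to 26502552 per library. SPLL SW replicate 3 stood apart, with reads in 54154 transcripts against 62901 to 70176 in the other libraries and with the highest erythrocyte share.

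Which named transcripts moved most like srebf2 was asked by the Pearson correlation of log2 CPM over the 13 libraries, as a description over libraries that share their depth, their tissue makeup and the group structure. Names and positions were read here for abundant transcripts and for those the study had selected, 1271 besides srebf2. The paper's own list of expressed transcripts reaches further down in abundance. The 10 most alike had r between 0.92 and 0.94, against a 5th to 95th percentile of -0.70 to 0.66 over all 46382 other transcripts tested. They were Zfp865, CDK12, ATXN7L1, tp53bp2a, Arhgap23, meis2a, Irs3, NHSL2, ZNF521 and YTHDF1. Of these 10, 9 belong to the same cluster as srebf2 in the study (its cluster 2), which was built on these libraries, and ZNF521 belongs to cluster 1.

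Zfp865, a zinc finger gene named by its mouse match, was the most alike with r = 0.94, and its level was 15.8 to 23.4 CPM in SPLL SW, 22.9 and 19.6 CPM in SPLL FW, 50.0, 30.6 and 40.02 CPM in SP-hold SW and 19.3 to 25.3 CPM in SP-hold FW. Like srebf2, it was lowest within SP-hold SW in replicate 2. CDK12, a kinase of the elongating RNA polymerase, had r = 0.94 and 30.6, 23.6 and 26.0 CPM in SP-hold SW, against 14.2 to 17.7 CPM in SP-hold FW. meis2a, a homeobox transcription factor, was the most abundant of the 10 with a mean of 57.0 CPM, a log2 difference of 0.90 for SW against FW in SP-hold and one of -0.35 in SPLL. ZNF521, a zinc finger transcription factor gene, had the largest such difference in SP-hold, 1.90, at a mean of 4.73 CPM, and in SPLL it had -0.10. In all 10 the difference of SW against FW was above 0 in SP-hold (0.75 to 1.90) and below 0 in SPLL (-0.72 to -0.10), which follows from the choice by likeness.

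The 5 named transcripts most opposite to srebf2 were ankrd13c, thoc7, ndst1b, smyd1a and Cirbp, with r between -0.95 and -0.91. ankrd13c, an ankyrin repeat gene, had 76.6, 89.5 and 79.6 CPM in SP-hold SW and 96.5 to 103.6 CPM in SP-hold FW, so that its range was narrow. Cirbp, the cold-inducible RNA-binding protein, averaged 449.5 CPM with a log2 difference of -0.52 for SW against FW in SP-hold and 0.00 in SPLL. The ndst1b transcript, which encodes an enzyme of heparan sulfate modification, was listed at 0 reads in the 3 SP-hold SW libraries and at 6.78 to 15.9 CPM in the other 10. Within groups, the correlation of deviations from group means (9 residual degrees of freedom) was highest for RERE (0.84), rhoaa (0.81), Irs3 (0.79), bcl11aa (0.75) and TMBIM6 (0.75). Of these, rhoaa, a small GTPase gene, followed srebf2 within groups while its correlation over the 13 libraries was -0.68.

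The likeness also went with transcript length. The 100 transcripts most alike to srebf2 over all tested had a median length of 4220 bases, the 100 most opposite one of 2125.5 bases, and all transcripts tested one of 3228 bases. Of the 100 most alike, 36 belonged to cluster 2 of the study, which held 187 of the 46383 transcripts tested. The study built that cluster on these libraries by pattern over the same groups, so that this overlap follows largely from its making. Within that cluster the srebf2 log2 difference of SW against FW in SP-hold, 0.62, lay close to the median of 0.66, with 100 members above it and 86 below it. Its difference between SPLL and SP-hold in SW, -0.71, was small for the cluster, whose median was -1.19, and its level was high, 43.4 CPM on average against a cluster median of 17.5 CPM.

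**Figure D3:**
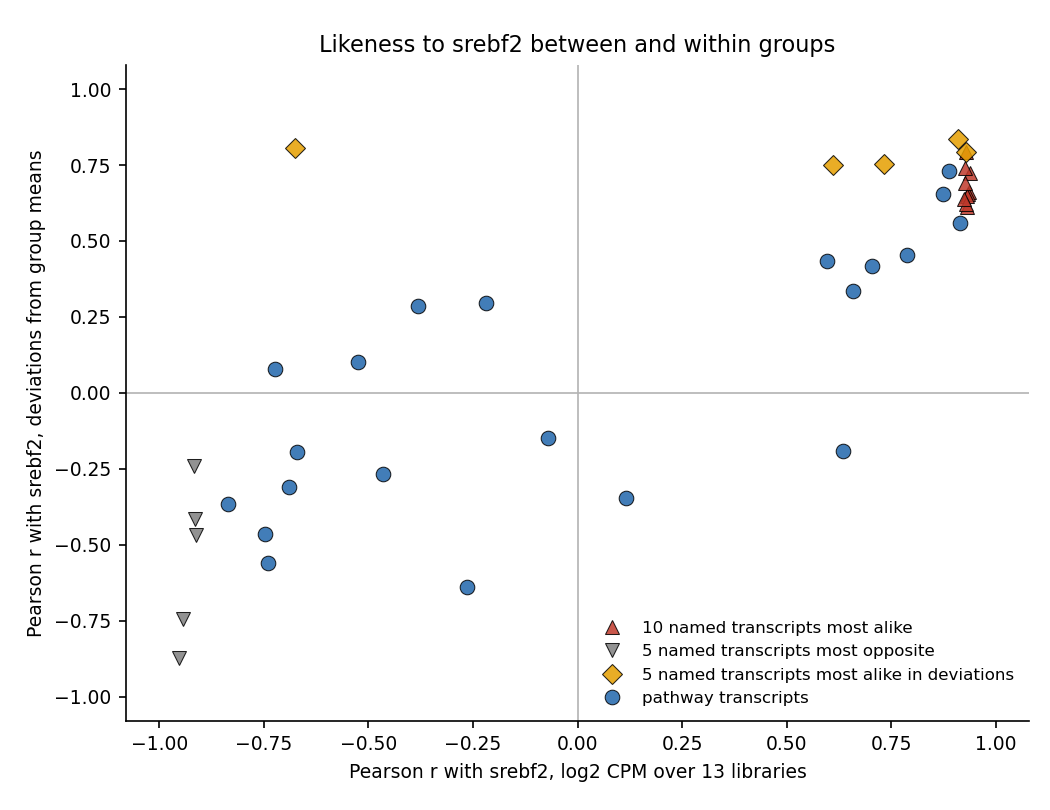
Pearson correlation of each transcript with srebf2 over the log2 CPM of 13 SV libraries (horizontal axis) and over the deviations from group means (vertical axis); triangles are the 10 most alike and 5 most opposite named transcripts, diamonds the 5 most alike in deviations, and circles the 21 pathway transcripts. The 10 most alike lie between 0.92 and 0.94 on the horizontal axis and between 0.61 and 0.79 on the vertical axis, while the pathway transcripts spread over both sides of 0.

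A list of 115 symbols around the SREBP pathway matched 21 further named transcripts of 15 symbols with srebf2, all of which passed the filter. No transcript of the 26 cholesterol synthesis symbols was among the named ones, nor was one of SCAP or INSIG, so that these were not analysed here. Of the 21, 11 belong to clusters the study made from these libraries and are no independent evidence of a direction, and 10 do not. Tests were those of edgeR over all 46383 transcripts, with a false discovery rate (FDR) under 0.05.

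After SW transfer, none of the 21 passed in either photoperiod group. In SP-hold, SW against FW, 0 of 21 passed (0.0841% of all transcripts tested did), 10 of 21 had an unadjusted p under 0.05 (9.59% of all did), and the alternative test DESeq2 called 6 higher and 2 lower (3.46% of all transcripts with a DESeq2 FDR). In SPLL, SW against FW, 0 of 21 passed (0.269% of all), 6 of 21 had an unadjusted p under 0.05 (10.5% of all), and DESeq2 called 1 higher and 1 lower (4.95% of all). Of the 10 with an unadjusted edgeR p under 0.05 in SP-hold, 8 were inside the study's clusters and 2 outside. Of the 6 in SPLL, 3 were inside and 3 outside. Transcripts inside the clusters were picked on these libraries, so the pooled counts are no evidence about the pathway. The median log2 fold change of the 21 was 0.11 in SP-hold and -0.09 in SPLL, beside -0.01 and 0.01 over all transcripts.

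The LDL receptor gene ldlra, whose product takes up cholesterol-carrying lipoproteins and whose mammalian counterpart is a target of SREBP2, gave the lowest FDR on the list for SW against FW in SP-hold, with its chromosome 3 transcript. Its chromosome 3 transcript ENSSSAT00000123885 (68483558 to 68494914) had 15.4, 19.2, 7.37 and 16.0 CPM in SPLL SW, 6.81 and 6.74 CPM in SPLL FW, 20.9, 17.2 and 23.1 CPM in SP-hold SW, and 5.88, 7.28, 6.80 and 7.76 CPM in SP-hold FW. Its chromosome 6 transcript ENSSSAT00000018186 (33231264 to 33243418) had 14.3, 19.3, 6.89 and 15.4 CPM in SPLL SW, 8.52 and 7.31 CPM in SPLL FW, 24.3, 19.8 and 25.1 CPM in SP-hold SW, and 8.31, 7.67, 10.3 and 10.3 CPM in SP-hold FW. Both transcripts were higher in all 3 SP-hold SW libraries than in any FW library. In SPLL SW, replicates 1, 2 and 4 lay above all FW libraries, whereas replicate 3, the library that stood apart, lay within the FW range for the chromosome 3 transcript and below it for that of chromosome 6.

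For SW against FW, the chromosome 3 transcript had a log2 fold change of 1.56 ± 0.27 (SE, edgeR FDR 0.10) in SP-hold and 1.098 ± 0.32 (FDR 0.21) in SPLL. The chromosome 6 transcript had 1.33 ± 0.28 (FDR 0.18) in SP-hold and 0.82 ± 0.33 (FDR 0.41) in SPLL. Without SPLL SW replicate 3, all 4 of these differences passed, with 1.56 ± 0.14 (FDR 0.0048) and 1.33 ± 0.16 (FDR 0.018) in SP-hold and with 1.32 ± 0.18 (FDR 0.013) and 1.04 ± 0.20 (FDR 0.047) in SPLL. None of them passed when any other SW library, or an SP-hold FW library, was left out. That library is not part of the SP-hold contrast, whose fold changes stayed the same. Only their SE fell, because the 4 groups share 1 estimate of the spread. In that fit 0.108% of all transcripts passed for SP-hold and 1.05% for SPLL, and lpin1a and CREBBP also passed in SP-hold, both higher. The interaction of photoperiod and SW, which asks whether the SW change differed between SPLL and SP-hold, was -0.46 ± 0.40 (FDR 0.78) and -0.51 ± 0.43 (FDR 0.76) with all libraries, and it did not pass without SPLL SW replicate 3 either (-0.24 ± 0.22 and -0.29 ± 0.25, FDR 0.74 and 0.71). In SPLL, ldlra levels thus lay higher in SW in 3 of 4 libraries, while srebf2 levels in SPLL SW overlapped those in FW. The study placed both ldlra transcripts in cluster 1, which it describes as raised by SW whatever the photoperiod. It placed srebf2 in cluster 2, described as raised by SW in SP-hold but not in SPLL. This contrast between ldlra and srebf2 thus follows largely from that sorting, which was done on these libraries. Reads of near-identical gene copies can be shared between them, which makes each copy's level uncertain.

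The lipid phosphatase gene lpin1a, whose product makes diacylglycerol for glycerolipid synthesis, was rare. It had 2.23, 2.00, 0.269 and 1.69 CPM in SPLL SW, 1.25 and 0.807 CPM in SPLL FW, 4.04, 2.72 and 3.94 CPM in SP-hold SW, and 0.384, 0.259, 0.527 and 0.422 CPM in SP-hold FW. The log2 fold change of SW against FW was 3.15 ± 0.60 (edgeR FDR 0.14) in SP-hold, where the groups did not overlap, and 0.59 ± 0.67 (FDR 0.94) in SPLL. The study chose lpin1a for its cluster 1 on these libraries, so its SP-hold values are no independent evidence of a rise in SW. All SP-hold FW libraries lay below the 0.77 CPM of the filter, which was set on the median over all libraries. Without SPLL SW replicate 3, which is not part of that contrast, the SP-hold value passed, at 3.15 ± 0.35 (FDR 0.011). Its fold change stayed the same, and its SE fell through the shared estimate of the spread. SCD5, a fatty acid desaturase gene, averaged 334.4 CPM in SPLL SW, 227.4 CPM in SPLL FW, 351.7 CPM in SP-hold SW and 317.9 CPM in SP-hold FW, and passed in no contrast.

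**Figure D4:**
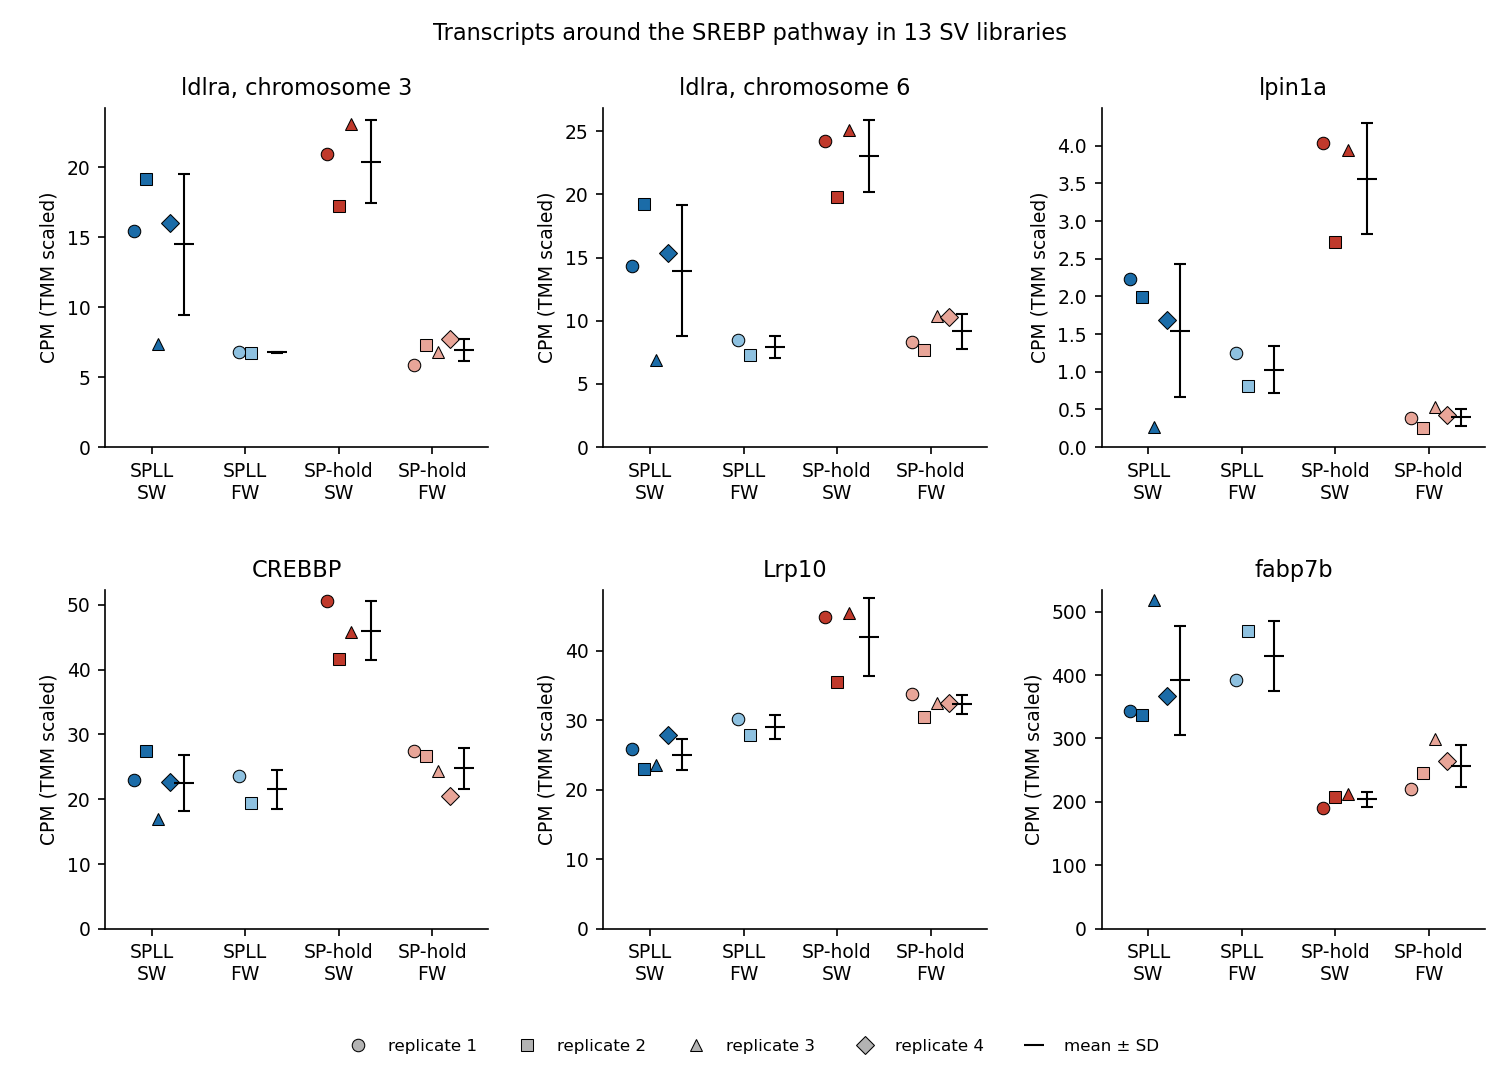
TMM-scaled CPM of 6 transcripts around the SREBP pathway in each of 13 SV libraries; point shapes are replicate numbers and bars give the group mean ± SD. For both ldlra transcripts, SPLL SW replicate 3 lies at 7.37 and 6.89 CPM while the other SPLL SW libraries lie at 14.3 CPM or above, and CREBBP and Lrp10 peak in SP-hold SW.

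Between SPLL and SP-hold in SW, 5 of the 21 transcripts were lower and 3 were higher, where 1.63% of all transcripts tested were lower and 1.42% higher. DESeq2 called 5 lower and 7 higher, with 11.9% of all called. Of the 10 outside the study's clusters, 1 passed (FABPH ENSSSAT00000082430, higher), and of the 11 inside them, 7 did. The 5 lower were all long, with 6132 to 9554 bases, and the 3 higher were shorter, with 638 to 2786 bases. The SPLL SW and SP-hold SW libraries also differed in the weight of long transcripts, and its part in these calls was not tested.

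The lower group held all 4 coactivator transcripts, which encode the acetyltransferases that SREBPs and many other factors recruit. CREBBP had 23.0, 27.4, 17.0 and 22.6 CPM in SPLL SW and 50.7, 41.6 and 45.8 CPM in SP-hold SW, a log2 fold change of -1.03 ± 0.16 (edgeR FDR 0.015). The chromosome 1 EP300 transcript ENSSSAT00000003890 had 11.0, 13.8, 14.1 and 15.1 CPM in SPLL SW and 35.5, 27.1 and 35.2 CPM in SP-hold SW, a log2 fold change of -1.27 ± 0.16 (edgeR FDR 0.0099). Neither overlapped between these groups, which follows largely from their selection by FDR on the same values. The EP300 transcripts ENSSSAT00000220776 and ENSSSAT00000182594, of 1 gene on chromosome 3 near srebf2, had -1.53 ± 0.29 (FDR 0.029) and -2.31 ± 0.39 (FDR 0.019). Lrp10, named by its mouse match and a member of the LDL receptor family, had 25.9, 22.9, 23.6 and 27.8 CPM in SPLL SW and 44.9, 35.5 and 45.5 CPM in SP-hold SW, a log2 fold change of -0.74 ± 0.11 (edgeR FDR 0.012). These 5 transcripts belong to cluster 2, as srebf2 does. In FW, SPLL against SP-hold, none of the 5 passed. EP300 ENSSSAT00000003890, ENSSSAT00000220776 and ENSSSAT00000182594 had -0.48 ± 0.19, -0.74 ± 0.34 and -1.36 ± 0.47 there (edgeR FDR 0.50, 0.59 and 0.42). CREBBP and Lrp10 had -0.20 ± 0.19 and -0.15 ± 0.12 (edgeR FDR 0.95 and 0.90). With TMM scaling, the EP300 transcripts thus lay lower on average in SPLL in FW as well, where srebf2 had 0.04 ± 0.13. ENSSSAT00000220776 overlapped there, with 8.12 to 10.8 CPM in SPLL FW and 10.6 to 23.5 CPM in SP-hold FW. In TPM, srebf2 too averaged less in SPLL FW (8.91 TPM) than in SP-hold FW (10.4 TPM). Long transcripts weighed less in SPLL FW (-0.35 to -0.22) than in SP-hold FW (-0.09 to 0.31), and the part of this was not tested. In TPM, Lrp10 and CREBBP overlapped between SPLL SW (2.66 to 6.00 and 1.74 to 5.36 TPM) and SP-hold SW (5.14 to 10.9 and 5.27 to 10.8 TPM), and the 3 EP300 transcripts did not.

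Of the fatty acid binding proteins, which carry fatty acids in the cytosol and of which fabp7 marks radial glia in vertebrates, 3 of 5 transcripts passed in SW, SPLL against SP-hold, and were higher. fabp7b had 343.5, 337.8, 518.3 and 366.4 CPM in SPLL SW and 190.4, 208.4 and 213.2 CPM in SP-hold SW, a log2 fold change of 0.94 ± 0.17 (edgeR FDR 0.022). fabp4 had 18.2, 16.4, 35.7 and 21.3 CPM in SPLL SW and 9.36, 6.79 and 7.64 CPM in SP-hold SW, a log2 fold change of 1.53 ± 0.26 (edgeR FDR 0.020). FABPH ENSSSAT00000082430 had 151.1, 135.4, 243.7 and 136.1 CPM in SPLL SW and 49.7, 89.3 and 91.2 CPM in SP-hold SW, with 1.12 ± 0.25 (edgeR FDR 0.045). These 3 did not overlap between the groups in CPM, which follows largely from their selection by FDR on the same values. In TPM, fabp7b overlapped. The study chose fabp4 and fabp7b for its cluster 4, which it describes as higher in SPLL than in SP-hold and comparatively stable after SW transfer. In FW, where these 3 did not pass, fabp7b had 391.4 to 468.8 CPM in SPLL and 220.0 to 298.6 CPM in SP-hold (0.74 ± 0.18, edgeR FDR 0.25). There fabp4 had 22.1 to 22.4 CPM in SPLL and 10.8 to 14.9 CPM in SP-hold (0.72 ± 0.28, edgeR FDR 0.49). FABPH ENSSSAT00000082430 had 0.26 ± 0.28 in FW (edgeR FDR 0.99). That fabp7b and fabp4 lay higher in SPLL in FW as well follows largely from their choice for cluster 4 on these libraries. In SW, fabp7 itself had 1.15 ± 0.30 and did not pass (FDR 0.066), nor did FABPH ENSSSAT00000086044 (0.48 ± 0.27, FDR 0.40). Both fabp7 and fabp7b are also among the 4 glia and tanycyte markers.

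These calls rested on few libraries. Leaving out SP-hold SW replicate 1, 1 of the 5 lower transcripts and 0 of the 3 higher ones still passed, and leaving out SP-hold SW replicate 2 or 3 also left 0 higher. The calls over all transcripts fell as well, from 1411 to 140 (0.302%), 817 (1.75%) and 253 (0.546%) without SP-hold SW replicates 1, 2 and 3. The number lower was 2 when SP-hold SW replicate 3 was dropped, 4 when SP-hold SW replicate 2 was, and 3 when SPLL SW replicate 1 or 4 was. Of all transcripts, 0.607% passed without SPLL SW replicate 1 and 1.13% without SPLL SW replicate 4. Dropping SPLL SW replicate 3 gave 4 lower and 2 higher, with 2.03% of all called. FABPH ENSSSAT00000082430 did not pass when any of 12 of the 13 libraries was left out in turn.

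In FW, SPLL against SP-hold, 0 of 21 passed (0.0906% of all), 6 of 21 had an unadjusted p under 0.05 (8.66% of all), and DESeq2 called 3 higher and 0 lower (3.26% of all). Of the 6, 4 were inside the study's clusters and 2 outside. The transcripts of apoeb, which encodes the lipoprotein component apolipoprotein E, were among the abundant ones on the list. ENSSSAT00000006701 on chromosome 5 had 3552 and 3874 CPM in SPLL FW and 1712 to 2318 CPM in SP-hold FW, a log2 fold change of 0.92 ± 0.22 (edgeR FDR 0.25). ENSSSAT00000197933 on chromosome 2 had 2564 and 2053 CPM in SPLL FW and 986.9 to 1450 CPM in SP-hold FW, with 0.85 ± 0.26 (edgeR FDR 0.35). Both SPLL FW libraries lay above all SP-hold FW libraries for both transcripts, with 2 SPLL FW libraries behind the difference. Such separation was not particular to apoeb. In CPM, npc2.1, Lrp10, fabp7 and both FABPH transcripts, among others on the list, did not overlap between these groups either. Its share over all transcripts was not counted. In SPLL, the difference of SW against FW was -0.59 ± 0.22 and -0.78 ± 0.26 (FDR 0.37 and 0.28), so that in CPM apoeb levels in SPLL SW lay again near those of SP-hold. In TPM, SPLL SW and SPLL FW overlapped for both transcripts. ENSSSAT00000006701 had 1574 to 2472 TPM in SPLL SW and 2407 to 2466 TPM in SPLL FW. In SP-hold it had 2027 to 2102 TPM in SW, above the 1131 to 1832 TPM in FW.

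In the interaction of photoperiod and SW, 0 of 21 passed (0.226% of all), 7 of 21 had an unadjusted p under 0.05 (11.7% of all), and DESeq2 called 0 higher and 2 lower (4.53% of all). Of the 7, 4 were inside the study's clusters and 3 outside. The lower ones in DESeq2 were Lrp10 and CREBBP, with edgeR values of -0.59 ± 0.16 (FDR 0.19) and -0.83 ± 0.25 (FDR 0.23). For the same contrast srebf2 had -0.75 ± 0.17, given above as a description.

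Of the remaining transcripts, ube2g2, a ubiquitin-conjugating enzyme that takes part in protein breakdown at the endoplasmic reticulum, had the lowest log2 fold changes for SW against FW on the list. It had 9.60, 10.6, 6.56 and 8.76 CPM in SPLL SW, 33.5 and 14.7 CPM in SPLL FW, 13.6, 8.99 and 6.45 CPM in SP-hold SW, and 24.8, 26.7, 30.0 and 28.8 CPM in SP-hold FW. The groups did not overlap in CPM in either photoperiod, although in TPM they did in SPLL (4.51 to 13.6 TPM in SW and 12.0 to 30.6 TPM in FW), and the log2 fold changes of -1.44 ± 0.33 in SPLL and -1.51 ± 0.32 in SP-hold did not pass (edgeR FDR 0.13 and 0.17), and the study chose this transcript for its cluster 3. The SPLL value rested on 2 unlike FW libraries. It was -1.91 (edgeR FDR 0.038) without SPLL FW replicate 2 and -0.73 (edgeR FDR 0.63) without SPLL FW replicate 1, where each fit had 1 SPLL FW library and took its spread from the other groups. The lysosomal cholesterol carrier npc2.1, the lysosomal membrane protein transcripts scarb2a and Scarb2, and pgrmc1, a haem-binding membrane protein, passed in no contrast in edgeR, with log2 fold changes between -0.37 and 0.65 in the pairwise contrasts.

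**Figure D5:**
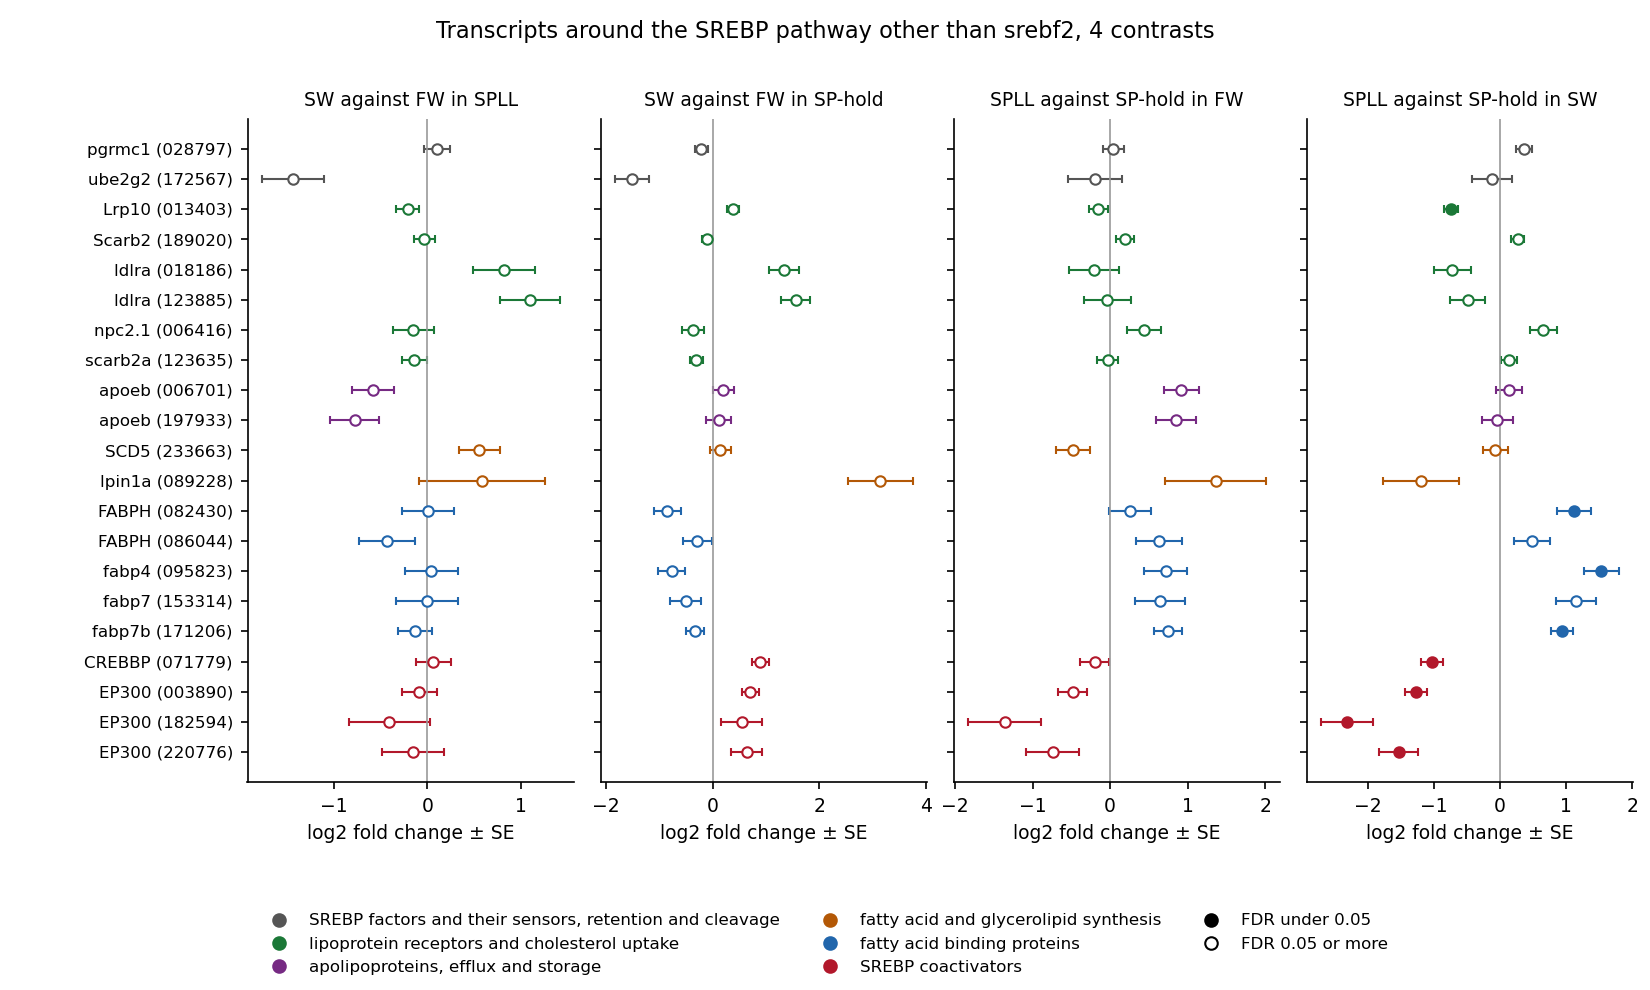
Log2 fold change ± SE (edgeR) of the 21 pathway transcripts other than srebf2 in 4 contrasts, labelled with the name and the last digits of the transcript identifier and coloured by role; filled points passed an FDR of 0.05. Filled points appear for SPLL against SP-hold in SW, 5 to the left of 0 and 3 to the right, and in no other contrast.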

How the data were processed

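Single-end reads of stranded mRNA libraries were trimmed with Cutadapt and assigned by the authors to the Ssal_v3.1 transcriptome with Salmon 1.1.0, correcting for GC bias. The files the authors deposited give, for each transcript, an estimated count of reads, TPM and effective length. The estimated counts were rounded, and a transcript was tested where its median over the 13 libraries reached 0.77 CPM, in edgeR 4.0.16 (glmQLFit and glmQLFTest in R 4.3.3, TMM, a mean for each of 4 groups without a block, leaving 9 residual degrees of freedom, Benjamini-Hochberg FDR under 0.05). SE is the absolute log2 fold change over the square root of F. SPLL FW has 2 libraries, and 1 estimate of the spread was shared by the 4 groups. DESeq2 1.42.0 (Wald test), other scalings, no filter, a replicate block and each library left out were alternatives. On simulated counts the scripts were checked before use. Names and positions, but no values, come from the supplementary tables of the study, and RefSeq gave the srebf2 and srebf1 positions. They were read for 1434 transcripts, 1274 of them named, which is only part of the transcripts the paper lists. The columns of the authors' own comparisons in those tables were not used. Named transcripts were srebf2, pathway transcripts past the threshold in any contrast, up to 4 more per role by mean TPM, the 10 most alike and 5 most opposite, and the 5 most alike within groups. The members and lists were chosen with earlier results of these data known. Libraries held 15346418 to 26502552 assigned reads, and intervals of counting alone leave out errors of read assignment, which were not modelled. The sequence of the transcript is not shown.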

Additional observations from a re-analysis of the deposited data

Results flagged for a closer look

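Over 46 groups of 4 libraries in which a library could stand apart by Dixon's test (srebf2 and the 21 pathway transcripts in SPLL SW and SP-hold FW among them), 5 did so, where chance gives about 1 in 20. SP-hold FW replicate 1 stood high for EP300 ENSSSAT00000003890, with 24.3 CPM against 18.3 to 18.8 CPM in the other libraries of its group, and for EP300 ENSSSAT00000182594, with 5.37 CPM against 2.33 to 2.40 CPM. The same library stood low for npc2.1, with 46.2 CPM against 61.3 to 62.0 CPM. It is the library with the fewest assigned reads, 15346418. SPLL SW replicate 3 stood high for FABPH ENSSSAT00000082430, with 243.7 CPM against 135.4 to 151.1 CPM, and for fabp7b, with 518.3 CPM against 337.8 to 366.4 CPM. It is the library with the lowest TMM factor, 0.80, and the highest erythrocyte share. No srebf2 value stood apart in its group by this rule, which does not apply to groups of 2 or 3.

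In TMM-scaled CPM, every SPLL SW library lay below every SPLL FW library for Lrp10, by as little as 27.846 against 27.859 CPM, and every SP-hold SW library lay above every SP-hold FW library. It had 22.9 to 27.8 CPM in SPLL SW against 27.9 and 30.2 CPM in SPLL FW, and 35.5 to 45.5 CPM in SP-hold SW against 30.4 to 33.8 CPM in SP-hold FW. The interaction that tests this difference was -0.59 ± 0.16 on the log2 scale and did not pass in edgeR (FDR 0.19). In TPM the opposite direction was absent, since Lrp10 averaged 4.47 TPM in SPLL SW and 4.06 TPM in SPLL FW, and 8.66 TPM in SP-hold SW and 5.43 TPM in SP-hold FW, and SW and FW overlapped in both photoperiods.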

How the results depend on the processing

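For srebf2, each alternative kept SP-hold SW above SP-hold FW and SPLL SW below SP-hold SW. The log2 difference of SW against FW in SP-hold was 0.79 and 0.84 in log2 TPM with a pseudocount of 1 and 0.1, and 0.54 to 0.73 when a library was left out. In SPLL it was 0.16 and 0.17 in log2 TPM and 0.045 in CPM without TMM, against -0.13 with TMM, and -0.26 to 0.00 with a library left out, so that its sign depended on the scale. SPLL against SP-hold in FW was -0.20 and -0.22 in log2 TPM and -0.13 in CPM without TMM, against 0.04 with TMM, and -0.10 to 0.16 with a library left out. SPLL against SP-hold in SW was -0.88 in log2 TPM with a pseudocount of 0.1, -0.56 against transcripts of like length and level (a scale added after the data were seen), and -0.83 to -0.63 with a library left out, and the interaction ran from -0.87 to -0.61. Of the 10 most alike transcripts, 3 were among the 10 in log2 TPM, and 6 to 10 with a library left out.

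Of pathway transcripts, DESeq2 called 6 higher and 2 lower (SW against FW, SP-hold), 1 and 1 (SPLL), 3 and 0 (FW), 7 and 5 (SW) and 0 and 2 (interaction), and it called 1380, 2287, 1505, 5483 and 2092 of all transcripts, against 39, 125, 42, 1411 and 105 in edgeR. Without the low-count filter, more transcripts entered the adjustment and 31, 15, 197 and 44 of all passed in SPLL, FW, SW and the interaction, with 0 pathway transcripts higher and 2 lower in SW. With a library left out, all transcripts called ran from 32 to 81 in SP-hold, 87 to 494 in SPLL, 34 to 279 in FW, 140 to 1344 in SW and 62 to 302 in the interaction. Pathway transcripts higher then ran from 0 to 4 in SP-hold, 0 to 2 in SPLL and 0 to 3 in SW, and lower from 0 to 1 in SPLL and 1 to 5 in SW. Lrp10 lost its SW call without SP-hold SW replicate 1, with an FDR of 0.058. The causes were not tested.

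Replicate numbers name fish within a group. Correlations of deviations were -0.04 to 0.09 (median 0.00) between same-numbered libraries and -0.09 to 0.06 (median 0.00) between others. The numbers thus gave no sign of pairing, but such values cannot exclude a shared tank or processing step. With the replicate block, 4, 1, 2, 157 and 3 of all transcripts passed in the 5 contrasts, and 1 pathway transcript was higher and 2 lower in SW. The block gave srebf2 a log2 difference of 0.62 in SP-hold. RLE factors changed no pathway call.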

Other observations

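Within 2000 kb of srebf2 on chromosome 3 lay 13 other tested transcripts whose positions were read here. Positions were read for abundant transcripts and those the study selected, so that this is not a sample of the region. The window and the transcripts named here were chosen after their values were seen. The nearest gene downstream among these 13 transcripts, wbp2nl, starts 90.8 kb from the srebf2 start and gave 2 transcripts. Their differences of SW against FW had opposite signs in SP-hold and the same sign in SPLL, and neither passed in these contrasts. ENSSSAT00000164352 had a log2 difference of SW against FW of 0.66 ± 0.17 in SP-hold (edgeR FDR 0.22) and -0.90 ± 0.19 in SPLL (FDR 0.096), and r with srebf2 was 0.79 over 13 libraries. Between SPLL and SP-hold in SW it passed, at -1.18 ± 0.17 (edgeR FDR 0.012), and the study chose it for cluster 2. ENSSSAT00000234404 of the same gene had -0.28 ± 0.16 in SP-hold (FDR 0.67) and -0.04 ± 0.18 in SPLL (FDR 1.00), with r of -0.63. POLR2F, a subunit gene of RNA polymerase II starting at -171.0 kb, had -0.14 ± 0.10 in SP-hold (FDR 0.81) and r of -0.57. The highest r in the window, 0.87 and 0.80, belonged to ENSSSAT00000214317, which has no name, at 1346 kb and to Wiz at 1282 kb. The study chose both for cluster 2. The EP300 transcripts described above start at -601.9 kb, and ldlra starts at 1825 kb.

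The ndst1b transcript, listed at 0 reads in the 3 SP-hold SW libraries, had 12.0, 12.5, 15.9 and 12.8 CPM in SPLL SW, 9.07 and 14.1 CPM in SPLL FW, and 6.78, 11.6, 12.4 and 10.1 CPM in SP-hold FW. Whether its reads were assigned to another transcript of the gene in SP-hold SW was not tested.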
